A study of Homo sapiens with 36 samples.

Results

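The copper and platinum transport genes described here are 10 genes chosen by name, out of 62757 genes in the count files: the copper uptake genes SLC31A1 and SLC31A2, the copper chaperone ATOX1, the copper ATPases ATP7A and ATP7B, the efflux pumps ABCC1, ABCC2 and ABCC4, and the metallothioneins MT2A and MT1X. Of these, 9 reached the count minimum for testing, a mean of 64 reads in at least 1 group, as did 12356 genes in all. SLC31A2 did not.

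Cells take up copper through SLC31A1 (CTR1), hand it over to chaperones such as ATOX1, which delivers it to the P-type ATPases ATP7A and ATP7B for secretion or export, and bind the excess on the cysteines of metallothioneins. Platinum drugs bind several of the same proteins, and the ABCC pumps export organic anions and glutathione conjugates from the cell. For this reason these genes are often looked at in colorectal cancer cells that are treated with oxaliplatin (OXPT).

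RNA-seq was made from HCT-116 cells, a human colorectal carcinoma line, WT or FBXW7-/- (KO). FBXW7 recognises substrates for a ubiquitin ligase. The KO cells are a single purchased line, so the genotype cannot be told apart from other features of that line. KO cells were transfected for 48 h with control esiRNA (esiCT) or with esiRNA to HDAC4 (esiHDAC4), or carried esiCT together with the degrader #11, which recruits VHL to class IIa HDACs. The dose of #11 is 1 µM in the treatment entry and 10 µM in the description entry of the labels. Each of these groups was left untreated (solvent) or was given 50 µM OXPT over the last 24 h, with 3 libraries a group. The 2 WT groups, untreated and OXPT, carry esiCT by their titles and esiHDAC4 by their treatment entries, so that genotype and esiRNA cannot be told apart in KO against WT. A further 12 WT libraries have entries that give opposite OXPT states and entered no comparison.

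The 24 libraries of the 8 groups held 10725966 to 20527222 reads assigned to genes. HDAC4 mRNA was 18.4, 14.0 and 24.9 CPM (TMM-normalized counts, scaled to a common library size) in untreated KO esiCT and 8.94, 8.80 and 14.9 in KO esiHDAC4, a log2 difference of -0.82 (SE 0.24, edgeR adjusted p = 0.561). In untreated WT it was 18.8, 25.6 and 21.6 CPM, and with OXPT it was 8.49, 8.44 and 10.02 CPM in WT and 4.13, 3.33 and 4.19 CPM in KO esiHDAC4, so that HDAC4 in every WT library lay above that in every KO esiHDAC4 library of the same treatment. FBXW7 reads over the whole gene, 15.4 to 18.1 CPM in untreated KO esiCT and 16.9 to 23.5 in WT, do not check the deletion. Epithelial KRT8 was at 2004 CPM or more in every library. PTPRC and CD3E of leukocytes and DCN of fibroblasts stayed under 0.15 CPM, whereas COL1A1 was read at 25.1 to 77.6 CPM. Summed over the marker lists, untreated and OXPT libraries held 0.396 to 1.58 and 1.31 to 2.82 CPM of 5 leukocyte genes, 25.3 to 54.3 and 36.1 to 77.6 CPM of 5 fibroblast genes, 0.561 to 2.37 and 0.182 to 1.27 CPM of 3 endothelial genes, and 5381 to 10675 and 8682 to 22048 CPM of 6 epithelial genes, and their part in the OXPT results was not tested. In bulk RNA, a lower level in each cell and a change in which cells survive cannot be told apart. Number 3 of both WT groups, of KO esiCT OXPT and of KO esiHDAC4 OXPT stood apart: 10.85% to 12.04% of their counts on protein-coding genes lay on transcripts of 5000 bases or longer, against 14.1% to 22.0% in the other 20, and 15.5% to 22.6% on transcripts of up to 1000 bases, against 9.02% to 15.3%. The lengths of the canonical transcripts of MT2A, MT1X and ATOX1 are 401, 404 and 471 bases, whereas those of ABCC2, ABCC4, ABCC1, ATP7B and ATP7A are 5806 to 8492 bases. The changes of the members with OXPT are therefore given also without number 3.

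Divided by the length of the canonical transcript, as CPM per kilobase, the members spanned a wide range of levels. MT2A was first in all 8 groups, with group means of 1426 to 3997 CPM per kilobase. ATOX1 came next (69.3 to 222) and then MT1X (29.3 to 114). ABCC1, at 14.2 to 18.4, had the highest group means of the transporters, above ABCC2 (5.92 to 17.9) and SLC31A1 (6.84 to 12.2). In untreated WT, ABCC1 and ABCC2 did not differ beyond their spread (18.4 ± 4.17 and 17.9 ± 10.9, SD, n = 3). ABCC2 and SLC31A1 changed places between groups and did not differ beyond their spread in untreated KO esiCT (8.24 ± 3.52 and 11.1 ± 0.379). ABCC4 (1.80 to 4.32) and ATP7B (1.24 to 2.18) followed, in reverse order in KO #11 with OXPT (1.80 and 1.97). ATP7A (0.241 to 0.748) and SLC31A2 (0.178 to 0.482) were last. Over all annotated exons, which for ATOX1 sum to 5239 bases, the place of ATOX1 lay between second and sixth, while MT2A remained first.

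**Figure D1:**
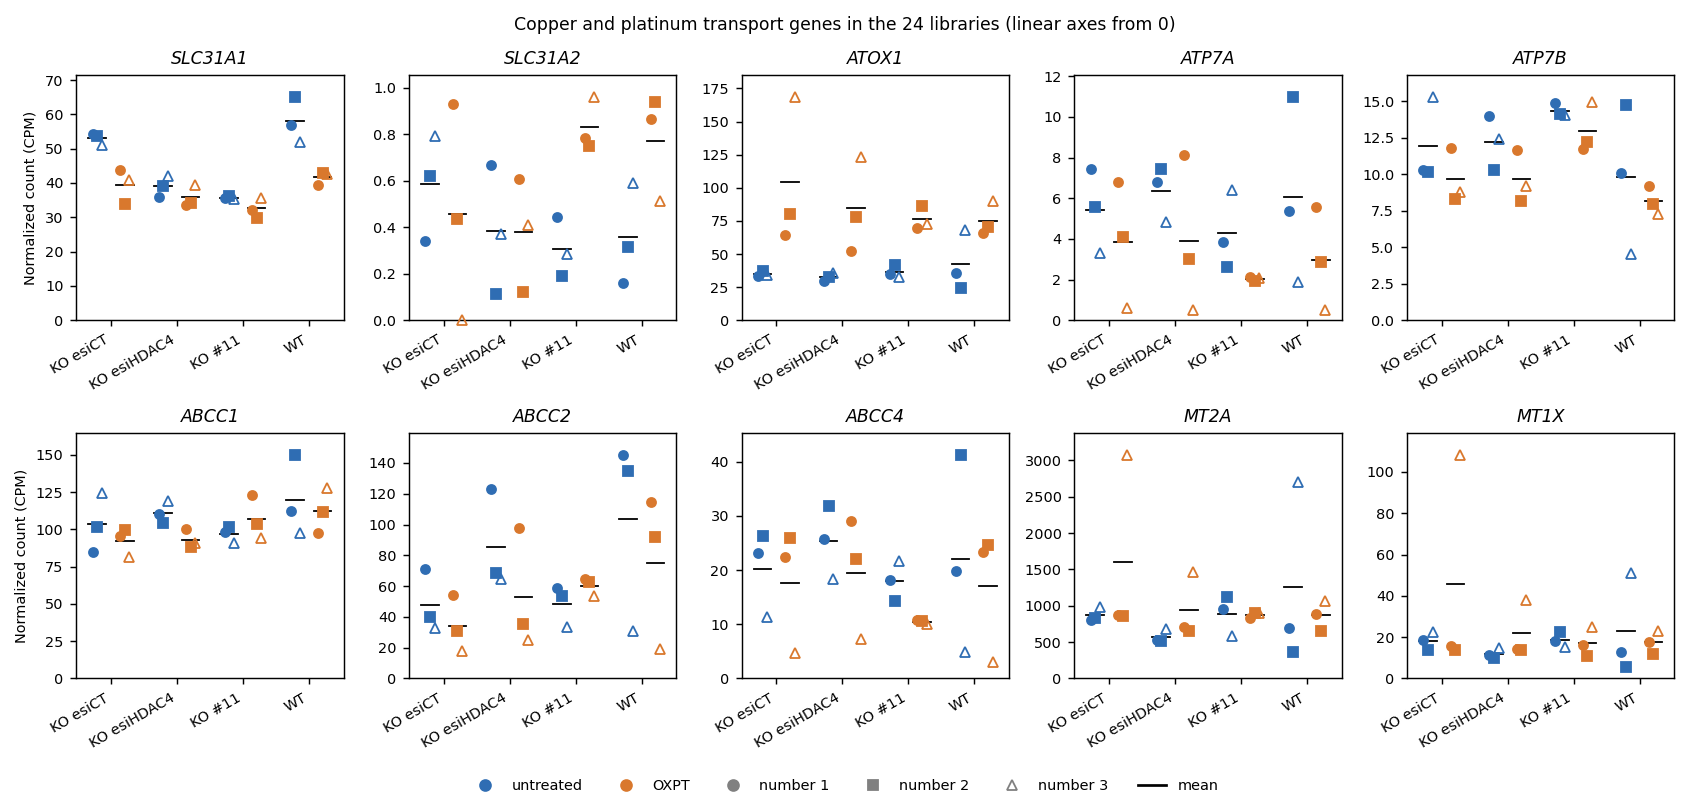
Level of each of the 10 genes (CPM, linear axes from 0) in the 24 libraries, by group; blue, untreated; orange, OXPT; marker shape, library number; bar, mean of 3 libraries. ATOX1 was higher with OXPT in each of the 3 KO groups without overlap, and the number 3 libraries of KO esiCT OXPT and WT untreated stood far above their groups in MT2A and MT1X and at the bottom of their groups in ATP7A and ABCC4.

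The effect of OXPT was tested in each background against its own untreated cells, and a gene was called where its p, adjusted over all 12356 genes by Benjamini-Hochberg, was under 0.05 and its fold over 1.5. In KO esiCT, 1 of the 9 tested members was called (ATOX1, higher), beside 11.3% of all genes. In KO esiHDAC4 it was also ATOX1 alone, beside 12% of all genes. In KO #11 no member was called by edgeR, beside 9.51% of all genes, with 1 at an unadjusted p under 0.05 (ATOX1), beside 23.5% of all genes, and DESeq2 called that 1. In WT no member was called by either tool, beside 10.7% of all genes, with 2 at an unadjusted p under 0.05 by each, beside 24.7% of all genes by edgeR. The members' median log2 fold change was -0.188 in KO esiCT, -0.253 in KO esiHDAC4, -0.103 in KO #11 and -0.381 in WT, against 0.00984, 0.018, -0.00242 and -0.0587 over all genes.

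SLC31A1, the high-affinity copper importer (chr9:113221544-113264492, plus strand, GRCh38), had the smallest SEs of the 9 tested members. In untreated KO esiCT its level was 54.4, 53.6 and 50.9 CPM, and with OXPT it was 43.7, 33.7 and 40.8 CPM. In WT it was 56.8, 65.1 and 52.0 CPM untreated and 39.5, 42.9 and 42.6 CPM with OXPT. In both backgrounds all OXPT libraries lay below all untreated ones, as did 14.8% of all genes in KO esiCT and 9.81% in WT. The log2 fold change was -0.43 (SE 0.15, edgeR adjusted p = 0.0649) in KO esiCT and -0.48 (SE 0.15, edgeR adjusted p = 0.0407) in WT, where the 1.39-fold difference was too small for a call. The WT adjusted p lay between 0.0223 and 0.146 as each of the 24 libraries was left out in turn. Without number 3 the changes were -0.47 (adjusted p = 0.0461) and -0.55 (adjusted p = 0.0202), both at a fold under 1.5.

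In KO esiHDAC4 the importer was already low before OXPT, at 35.9, 39.0 and 42.0 CPM, and it was 33.6, 34.3 and 39.5 CPM with the drug. In KO #11 it was at 35.7, 36.2 and 35.2 CPM untreated and 32.2, 29.9 and 35.6 CPM with OXPT. Here treated and untreated libraries overlapped, and the log2 fold changes were -0.12 (SE 0.15) and -0.13 (SE 0.15), or -0.14 and -0.26 without number 3. The difference between these responses and that in KO esiCT was 0.30 (SE 0.21, edgeR adjusted p = 1.00) for esiHDAC4 and 0.29 (SE 0.21, edgeR adjusted p = 0.92) for #11, so a difference of response was not shown.

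Without OXPT, SLC31A1 in every esiHDAC4 and every #11 library lay below its level in every esiCT library. The log2 difference from esiCT was -0.44 (SE 0.15, unadjusted p = 0.00672, edgeR adjusted p = 0.874) with esiHDAC4 and -0.57 (SE 0.15, unadjusted p = 0.000913, edgeR adjusted p = 0.0824) with #11. In these comparisons 12.1% and 14.8% of all genes were lower without overlap. Library numbers did not pair #11 with esiCT, so a difference between these sets of libraries cannot be told apart from #11. For #11 the adjusted p was 0.0445 with only the 2 groups in the fit, 0.0229 without number 3, 0.0407 with a block for the replicate number and 0.00098 with DESeq2, always at a fold under 1.5 for these 4. Under OXPT the values of the 3 KO groups overlapped, and KO and WT differed by -0.13 (SE 0.15) untreated and -0.08 (SE 0.15) with OXPT.

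SLC31A2 (CTR2), an intracellular relative of the importer, was at the limit of what could be counted. Its unstranded counts were 0 to 19 reads a library, 0 to 0.961 CPM, and no fold is given. Of its annotated exonic bases, 63.97% are shared with FKBP15 on the opposite strand. Counting by the reverse strand gave 33 to 183 reads, 10.5 times as many in total, whereas this ratio was 0.496 to 0.825 for the other members. The totals of the 2 strand columns were nearly equal in every library (ratio 1.00 to 1.02), so that reads of SLC31A2 and FKBP15 cannot be told apart.

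ATOX1, the chaperone that carries copper to the ATPases (chr5:151742316-151772532, minus strand), was the 1 member called with OXPT. In KO esiCT it was 33.7, 37.4 and 34.4 CPM untreated and 64.6, 80.5 and 169 CPM with OXPT. In KO esiHDAC4 it was 29.4, 32.8 and 35.6 CPM untreated and 52.3, 78.0 and 123 CPM with OXPT. The groups did not overlap in either, and number 3 was the highest OXPT library in both; among all genes 15.3% and 18.8% were higher without overlap. The log2 fold change was 1.57 (SE 0.35, 2.97-fold, edgeR adjusted p = 0.00605) in KO esiCT and 1.37 (SE 0.35, 2.59-fold, edgeR adjusted p = 0.0138) in KO esiHDAC4.

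With #11 the levels of ATOX1 were 34.7, 41.8 and 32.9 CPM untreated and 69.9, 86.4 and 72.3 CPM with OXPT, again without overlap, as in the 22.4% of all genes that were higher. In WT they were 35.4, 24.5 and 68.1 CPM untreated and 65.6, 70.3 and 89.9 CPM with OXPT. WT untreated number 3 reached into the range of the treated libraries, and the other two untreated libraries did not. The log2 fold change was 1.06 (SE 0.35, edgeR adjusted p = 0.0611) with #11 and 0.82 (SE 0.35, edgeR adjusted p = 0.144) in WT, both short of a call.

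The ATOX1 calls changed as single libraries were left out: that in KO esiCT held in 23 of 24 fits and that in KO esiHDAC4 in 21 of 24. Without KO esiCT OXPT replicate 3 the change in KO esiCT was 1.04 (edgeR adjusted p = 0.0544), and without KO esiHDAC4 OXPT replicate 3 that in KO esiHDAC4 was 0.99 (adjusted p = 0.103). Dropping KO esiHDAC4 untreated replicate 1 or 2 also ended the latter call (1.26 and 1.37, adjusted p = 0.0758 and 0.0545). Without WT untreated replicate 3 the change in WT was 1.34 (adjusted p = 0.0128). In the 16 libraries numbered 1 and 2, ATOX1 was 24.5 to 41.8 CPM untreated and 52.3 to 86.4 CPM with OXPT. With number 3 left out of every group, all 4 changes were called, at 1.03, 1.07, 0.98 and 1.20 in KO esiCT, KO esiHDAC4, KO #11 and WT. With only the groups compared in the fit, the call in KO esiCT was lost (1.54, edgeR adjusted p = 0.0597), and those in KO esiHDAC4 and KO #11 were made. All 4 were called with a replicate block (1.47, 1.31, 1.05 and 0.87, with 0.0185 for #11 and 0.0449 for WT as edgeR adjusted p) and with a correction for transcript length in each library (1.05, 1.05, 0.88 and 0.81). No test of a difference between the backgrounds passed: the OXPT response in KO esiCT exceeded that in WT by 0.75 (SE 0.49, edgeR adjusted p = 1.00). Neither esiHDAC4 (-0.11, SE 0.35) nor #11 (0.05, SE 0.35) moved untreated ATOX1 past its error.

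**Figure D2:**
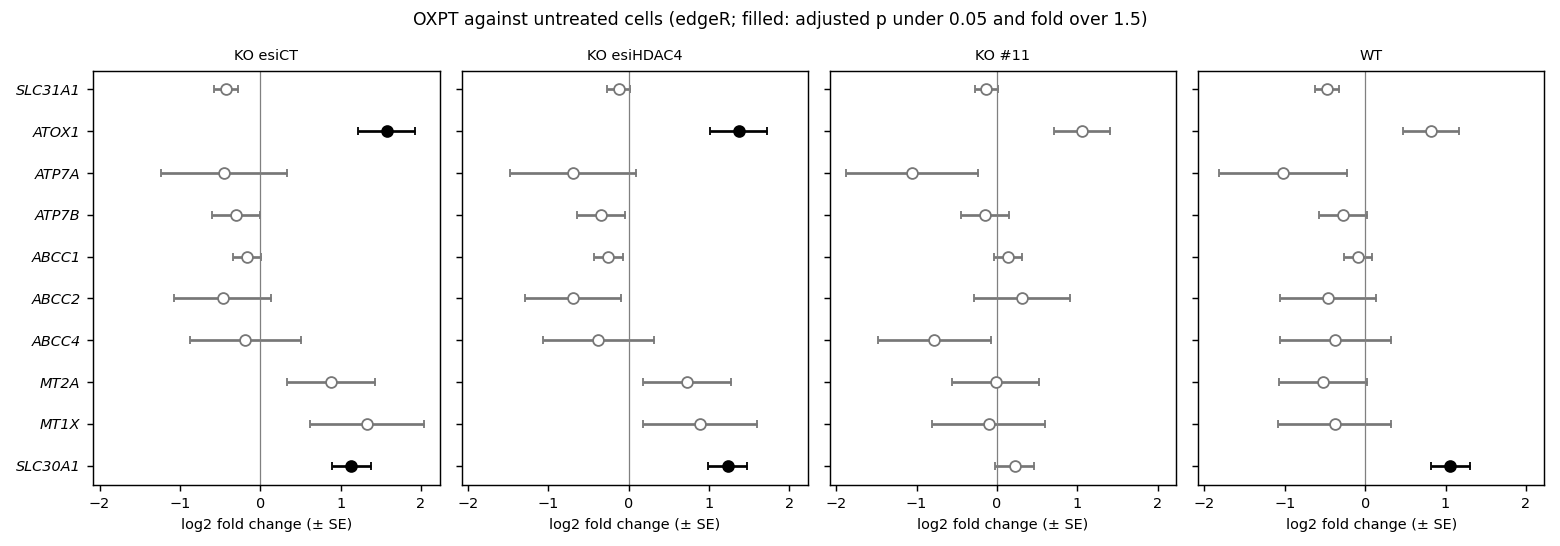
Log2 fold change with OXPT (x axis, ± SE, edgeR) of the 9 tested genes and of the zinc exporter SLC30A1 in the 4 backgrounds; filled points passed an adjusted p under 0.05 and a fold over 1.5. ATOX1 was called in KO esiCT and KO esiHDAC4 (1.57 and 1.37), SLC30A1 in KO esiCT, KO esiHDAC4 and WT.

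ATP7A and ATP7B, the ATPases that load copper into secreted enzymes and export it, were scarce. ATP7A was 0.493 to 11.0 CPM (5 to 208 reads) and ATP7B was 4.54 to 15.3 CPM over the 24 libraries. Neither was called in any of the 13 comparisons. The log2 fold change of ATP7B with OXPT was between -0.34 and -0.15 (SE 0.30), and that of ATP7A was -0.45 in KO esiCT, -0.69 in KO esiHDAC4, -1.06 in KO #11 and -1.03 in WT, with SEs of 0.79 to 0.83. Without number 3 the changes of ATP7A were -0.23, -0.35, -0.70 and -0.93 in the same order, those of ATP7B were -0.01, -0.29, -0.325 and -0.52, and none was called.

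ATP7A differed within groups mainly by its low level in libraries numbered 3. In KO esiCT OXPT it was 6.82, 4.12 and 0.595 CPM, in KO esiHDAC4 OXPT 8.14, 3.03 and 0.493 CPM, and in WT OXPT 5.57, 2.88 and 0.512 CPM. In each of these groups number 3 was the lowest by far in unstranded reads (5, 6 and 7). Reverse-strand reads were 84, 40 and 11 in KO esiCT OXPT, 102, 41 and 29 in KO esiHDAC4 OXPT, and 81, 46 and 27 in WT OXPT. Number 3 was lowest there too, but above its unstranded count, so how low it lies depends on the strand column. In KO #11, where number 3 was not the lowest, ATP7A was 3.85, 2.64 and 6.39 CPM untreated and 2.12, 1.94 and 2.08 CPM with OXPT. These groups did not overlap, as in 20.1% of all genes that were lower. With only these 2 groups in the fit the change was called (-1.05, edgeR adjusted p = 0.0497), and in the model over all groups it was not (adjusted p = 0.481).

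Among the efflux pumps, ABCC1 (MRP1) varied least, from 81.7 to 150 CPM over the 24 libraries. Its log2 fold change with OXPT was -0.17 in KO esiCT, -0.25 in KO esiHDAC4, 0.14 in KO #11 and -0.09 in WT (SE 0.18 each), and without number 3 it was 0.07, -0.18, 0.13 and -0.30, so that the sign in KO esiCT turned with number 3. In KO esiHDAC4 the 3 untreated libraries (110, 104 and 119 CPM) lay above the 3 treated ones (100, 88.0 and 91.1 CPM), as did 16.6% of all genes, but the change was not called (edgeR adjusted p = 0.399).

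ABCC2 (MRP2), the pump for conjugated drugs at the apical membrane, ran from 18.1 to 145 CPM and fanned out within groups. In untreated KO esiCT it was 71.0, 40.0 and 32.5 CPM, and in untreated WT 145, 135 and 31.1 CPM. With OXPT it was 54.5, 30.5 and 18.1 CPM in KO esiCT and 114, 91.9 and 19.3 CPM in WT. In all 4 groups number 3 was the lowest, and KO and WT overlapped only through WT number 3. The log2 difference of KO from WT was -1.12 (SE 0.61, edgeR adjusted p = 0.962) untreated and -1.12 (SE 0.61, adjusted p = 0.963) with OXPT; no value was called, and without the count filter the untreated one was (adjusted p = 0.0144). Without number 3 the differences were -1.33 (adjusted p = 0.309) and -1.28 (adjusted p = 0.525), and as single libraries were left out the untreated one lay between -1.54 (without WT untreated replicate 3) and -0.80 (without WT untreated replicate 1). The change of ABCC2 with OXPT was -0.47, -0.69, 0.31 and -0.46 in KO esiCT, KO esiHDAC4, KO #11 and WT (SE 0.60 each), and -0.37, -0.53, 0.14 and -0.43 without number 3, and none was called. ABCC2 is also among the genes that the study lists near its super-enhancers, which makes it no independent choice.

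In untreated KO esiHDAC4, ABCC2 was 123, 68.5 and 64.6 CPM, a log2 difference from esiCT of 0.83 (SE 0.60, edgeR adjusted p = 1.00), and under #11 it was 58.5, 53.9 and 33.6 CPM, a difference of 0.03 (SE 0.60). With OXPT it was 97.5, 35.6 and 25.1 CPM in KO esiHDAC4 and 64.8, 62.9 and 53.3 CPM in KO #11. These groups overlapped with their controls in every case.

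ABCC4 (MRP4), which exports nucleotide analogues and cyclic nucleotides, was 3.07 to 41.3 CPM. It too was lowest in the number 3 libraries that stand apart, at 3.07 and 4.84 CPM with and without OXPT in WT, 4.76 in KO esiCT OXPT and 7.31 in KO esiHDAC4 OXPT, below the 10.1 to 41.3 CPM of the other 20. In KO #11 it was 18.1, 14.3 and 21.7 CPM untreated and 10.8, 10.6 and 10.1 CPM with OXPT. These groups did not overlap, as in 20.1% of all genes that were lower (-0.78, SE 0.70, edgeR adjusted p = 0.546, and called at -0.77 and 0.0197 with only these groups in the fit). As given for ATP7A, the share of counts on long transcripts was also lower with OXPT in KO #11. With the length correction over all groups, ABCC4 was not called. In KO esiCT, KO esiHDAC4 and WT the change of ABCC4 with OXPT was -0.19, -0.38 and -0.37 (SE 0.69 each), and without number 3 it was -0.03, -0.17, -0.33 and, in KO #11, -0.64, none of which was called. Under OXPT, KO esiCT was at 22.4, 25.9 and 4.76 CPM, so that #11 lay below numbers 1 and 2 and above number 3. The log2 difference of #11 from esiCT was -0.76 (SE 0.70, edgeR adjusted p = 0.749), and in the 16 libraries numbered 1 and 2 it was -1.21 and called (adjusted p = 0.0141).

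**Figure D3:**
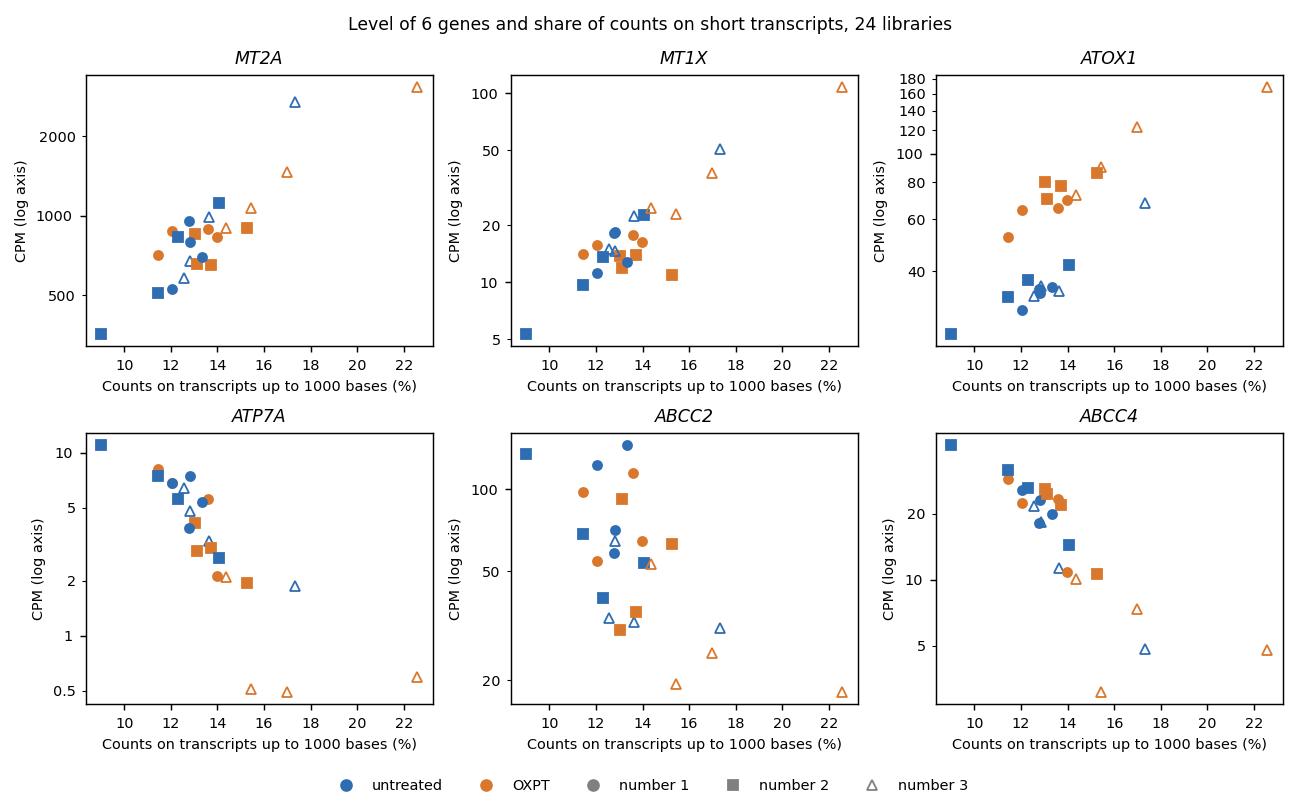
CPM (log axis) of 6 members in the 24 libraries against the percentage of counts on transcripts of up to 1000 bases; blue, untreated; orange, OXPT; open triangles, number 3. The 4 libraries at 15.5% to 22.6% held the lowest ABCC4 and ATP7A, and the 3 highest MT2A values were among them; OXPT and untreated libraries of like share remained apart in ATOX1.

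MT2A and MT1X encode small cysteine-rich proteins that bind zinc and copper, and lie on the plus strand of chr16 in the metallothionein cluster (MT2A at 56608584 to 56609497, MT1X at 56682470 to 56684196). Their transcription is known to be turned on by the zinc sensor MTF1 through metal response elements. The 250 bases before the start of each gene are shown because the core of this element was found there more often than in the other members with an entry. The sequences are from RefSeq on GRCh38.p14, read 5′ to 3′ on the gene strand, and capitals mark each match to the core TGCACNC or TGCGCNC on either strand (chr16:56608334-56608583 and chr16:56682220-56682469).
MT2A: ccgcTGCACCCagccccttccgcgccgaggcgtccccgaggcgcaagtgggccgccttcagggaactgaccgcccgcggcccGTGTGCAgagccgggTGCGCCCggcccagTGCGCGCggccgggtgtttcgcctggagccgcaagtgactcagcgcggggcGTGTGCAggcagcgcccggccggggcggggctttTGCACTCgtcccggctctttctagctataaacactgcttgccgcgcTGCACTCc
MT1X: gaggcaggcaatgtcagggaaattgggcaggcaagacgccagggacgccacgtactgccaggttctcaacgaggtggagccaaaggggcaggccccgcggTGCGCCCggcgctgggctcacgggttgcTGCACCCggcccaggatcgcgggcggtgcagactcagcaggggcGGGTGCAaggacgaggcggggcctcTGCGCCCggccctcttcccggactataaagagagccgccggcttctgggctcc
MT2A held 7 matches and MT1X 4. Of 35116 promoters of this length, 24.8% held at least 1 match, 0.37% at least 4 and 0.0513% at least 6. Of the 8 members with a RefSeq promoter, ATOX1 held 2 matches that overlap each other on opposite strands, 1 of the entries of ATP7B held 2, ABCC2 and ABCC4 held 1 each, and SLC31A1 and ATP7A held 0. Among the other metallothioneins with an entry, MT1H held 8 matches and MT1B and MT4 held 3 each, and these genes did not reach the count minimum. A match describes letters only.

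MT2A was abundant and differed widely between libraries. In KO esiCT it was 799, 828 and 989 CPM untreated and 877, 856 and 3075 CPM with OXPT. In KO #11 it was 953, 1122 and 583 CPM untreated and 834, 896 and 898 CPM with OXPT. In WT it was 700, 358 and 2706 CPM untreated and 891, 659 and 1067 CPM with OXPT. Treated and untreated libraries overlapped in each, with number 3 of KO esiCT OXPT and of WT untreated far above the rest. The log2 fold change with OXPT was 0.88 (SE 0.55, edgeR adjusted p = 0.33) in KO esiCT, 0.72 (SE 0.55) in KO esiHDAC4, -0.02 (SE 0.54) in KO #11 and -0.52 (SE 0.55) in WT, and without number 3 it was 0.10, 0.39, -0.31 and 0.56. None of these was called, and in WT the sign depended on number 3.

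With esiHDAC4, MT2A was 528, 512 and 676 CPM untreated, below all 3 esiCT libraries, as were 12.1% of all genes. The log2 difference was -0.61 (SE 0.55, edgeR adjusted p = 1.00) and -0.65 without number 3. With OXPT it was 712, 653 and 1471 CPM in KO esiHDAC4, and the difference from esiCT was -0.76 (SE 0.55), or -0.36 without number 3. Neither was called.

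MT1X was far lower, at 5.34 to 108 CPM, with the same libraries at its ends: KO esiCT OXPT number 3 was highest and WT untreated number 2 lowest for both genes. Over the 24 libraries the Pearson r of MT1X and MT2A on log2 CPM was 0.944, given as a description, since the libraries share their length make-up and the paralogs may share reads. MT1X also shares 18.6% of its exonic bases with a lncRNA on its strand. Its log2 fold change with OXPT was 1.33 (SE 0.71, edgeR adjusted p = 0.248) in KO esiCT, 0.89 (SE 0.71) in KO esiHDAC4, -0.10 (SE 0.70) in KO #11 and -0.38 (SE 0.70) in WT, and without number 3 it was -0.12, 0.43, -0.63 and 0.74.

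The other metallothioneins were fixed as a list of 9, of which MT1E and MT1F reached the count minimum; neither was called in any of the 13 comparisons. MT1A, MT1B, MT1G, MT1H, MT1M, MT3 and MT4 did not reach it. For MT1G this rests on 0 to 4 unstranded reads a library, against 1 to 56 by the reverse strand. MT1E was 147 to 1345 CPM, highest in the same 2 libraries as MT2A. The share of short transcripts moves with the metallothioneins and with the low ATP7A and ABCC4. With the correction for transcript length, none of MT2A, MT1X, ATP7A and ABCC4 was called in any comparison. How much of their values the share accounts for was not tested.

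Among MTF1 and the zinc exporters, a list of 3 with 2 tested, SLC30A1 (ZnT1), which carries zinc out of the cell and is a known MTF1 target, was called 4 times. In KO esiCT it was 22.9, 23.0 and 27.4 CPM untreated and 64.01, 41.4 and 55.1 CPM with OXPT. In WT it was 16.9, 32.8 and 28.3 CPM untreated and 49.6, 50.6 and 62.3 CPM with OXPT. All treated libraries lay above all untreated ones in both, as did 15.3% and 11.5% of all genes, and number 3 was no exception. The log2 fold change was 1.13 (SE 0.24, edgeR adjusted p = 0.00405) in KO esiCT, 1.23 (SE 0.24, adjusted p = 0.00211) in KO esiHDAC4 and 1.06 (SE 0.24, adjusted p = 0.00699) in WT, and each was called in 24 of 24 fits that left out a library.

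In KO #11, SLC30A1 was high without OXPT, at 56.3, 54.0 and 54.5 CPM, and it was 49.6, 51.4 and 90.9 CPM with OXPT. The untreated level exceeded that in esiCT by 1.17 on the log2 scale (SE 0.24, 2.25-fold, edgeR adjusted p = 0.039), without overlap, in a comparison in which 0.51% of all genes were called and 17.2% were higher without overlap. This call held in 12 of 24 fits that left out a library, with changes of 1.12 to 1.26 and an adjusted p of up to 0.22, and was lost with the length correction (1.15, adjusted p = 0.0538). The #11 libraries did not pair by number with those of esiCT, so a difference between the sets cannot be told apart from #11. With OXPT in KO #11 the change was 0.22 (SE 0.24, edgeR adjusted p = 0.625). The difference of the OXPT responses with and without #11, -0.91 (SE 0.34, unadjusted p = 0.0141), did not pass over all genes (edgeR adjusted p = 0.549). SLC30A10 did not reach the count minimum. MTF1 itself was not called with OXPT (-0.48 to 0.09, SE 0.25).

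In the remaining lists, calls with OXPT stand beside the 11.3%, 12%, 9.51% and 10.7% of all genes called in KO esiCT, KO esiHDAC4, KO #11 and WT, and at these list sizes nothing is read from the counts. Of 15 tested of 20 other copper genes, none was called in KO esiCT or KO esiHDAC4, 2 were higher in KO #11, and 1 was higher and 1 lower in WT, with medians of -0.252, -0.167, -0.0541 and -0.192. SCO2, STEAP4, MEMO1, CP and LOX did not reach the count minimum. For SCO2 this does not show a low level, since it had 1 to 19 unstranded reads a library but 171 to 545 by the reverse strand. CP likewise had 0 to 2 unstranded reads but 4 to 63 by the reverse strand. STEAP3, a metal reductase, rose in KO #11 (1.28, SE 0.22, edgeR adjusted p = 0.000641) and in WT (0.67, SE 0.21, adjusted p = 0.0492), the latter called in 6 of 24 fits that left out a library. SOD1, the copper and zinc superoxide dismutase, rose in KO #11 (0.70, SE 0.20, adjusted p = 0.0282, called in 19 of 24), and COMMD1, which binds ATP7B, fell in WT (-1.38, SE 0.39, adjusted p = 0.0248, called in 20 of 24). Without number 3, the WT calls of STEAP3 (0.44) and COMMD1 (-0.82) and the call of SOD1 (0.47) were lost, and COMMD1 was called in KO esiCT (-1.45), KO esiHDAC4 (-1.16) and KO #11 (-1.22 by edgeR, adjusted p = 0.00809).

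Of 6 tested of 13 other platinum transporters none was called with OXPT in any background; SLC22A2, SLC22A3, SLC47A1, SLC47A2, ABCC6 and ABCG2 were among those under the count minimum. Among 6 glutathione genes GSS, glutathione synthetase, rose with OXPT in the 3 KO groups by 0.87, 0.92 and 0.86 (SE 0.26, edgeR adjusted p = 0.0339, 0.0234 and 0.0381), and SLC7A11, the cystine importer, fell in KO #11 by 3.51 (SE 0.84, adjusted p = 0.0105). In KO #11, SLC7A11 was 74.2, 49.3 and 90.5 CPM untreated and 4.31, 3.29 and 11.2 CPM with OXPT. In WT, SLC7A11 was 13.4, 31.0 and 37.4 CPM untreated and 8.97, 3.55 and 2.63 CPM with OXPT. These groups did not overlap, as in 9.81% of all genes that were lower, and the SLC7A11 change of -2.42 (SE 0.81, edgeR adjusted p = 0.0582) was not called. In KO esiCT, SLC7A11 was 33.3, 37.4 and 7.26 CPM untreated and 14.7, 3.90 and 3.09 CPM with OXPT, a change of -1.82 (SE 0.79, edgeR adjusted p = 0.146). Untreated KO #11 thus lay above untreated KO esiCT in every library, whereas with OXPT these groups overlapped. In KO esiHDAC4 the SLC7A11 change was -0.25 (SE 0.75), and neither change was called. GSS in WT was 111, 81.7 and 170 CPM untreated and 187, 160 and 265 CPM with OXPT, a change of 0.75 (SE 0.26, adjusted p = 0.0656) that was called without number 3 (0.86). The GSS calls held in 19, 19 and 12 of 24 fits that left out a library, and that of SLC7A11 in 22.

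For esiHDAC4, #11 and genotype, the number of the 9 tested members called by edgeR was 0 in each comparison. With esiHDAC4 this stood beside 0.00809% of all genes called in untreated KO and 0% with OXPT, where DESeq2 called 9 genes and edgeR gave 3.08% at an unadjusted p under 0.05. With #11 it stood beside 0.51% untreated and 0.121% with OXPT, and for KO against WT beside 0.291% and 0.138%. DESeq2 called no member in these 6 comparisons either. At an unadjusted p under 0.05 edgeR gave SLC31A1 with esiHDAC4 and with #11, both untreated, beside 3.19% and 13.8% of all genes, and no other member in the 6 comparisons, where all genes gave 10.2% with #11 under OXPT and 5.74% and 5.4% in KO against WT without and with OXPT; DESeq2 gave 1 member in each of these 2, 2 with #11 under OXPT and 1 in KO against WT under OXPT. The 3 tests of a difference between OXPT responses called 0 members and 0% of all genes by edgeR, with 1.63%, 0.154% and 6.98% of all genes at an unadjusted p under 0.05 (genotype, esiHDAC4 and #11) and no member among them; DESeq2 called 0, 0 and 36 genes and no member.

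**Figure D4:**
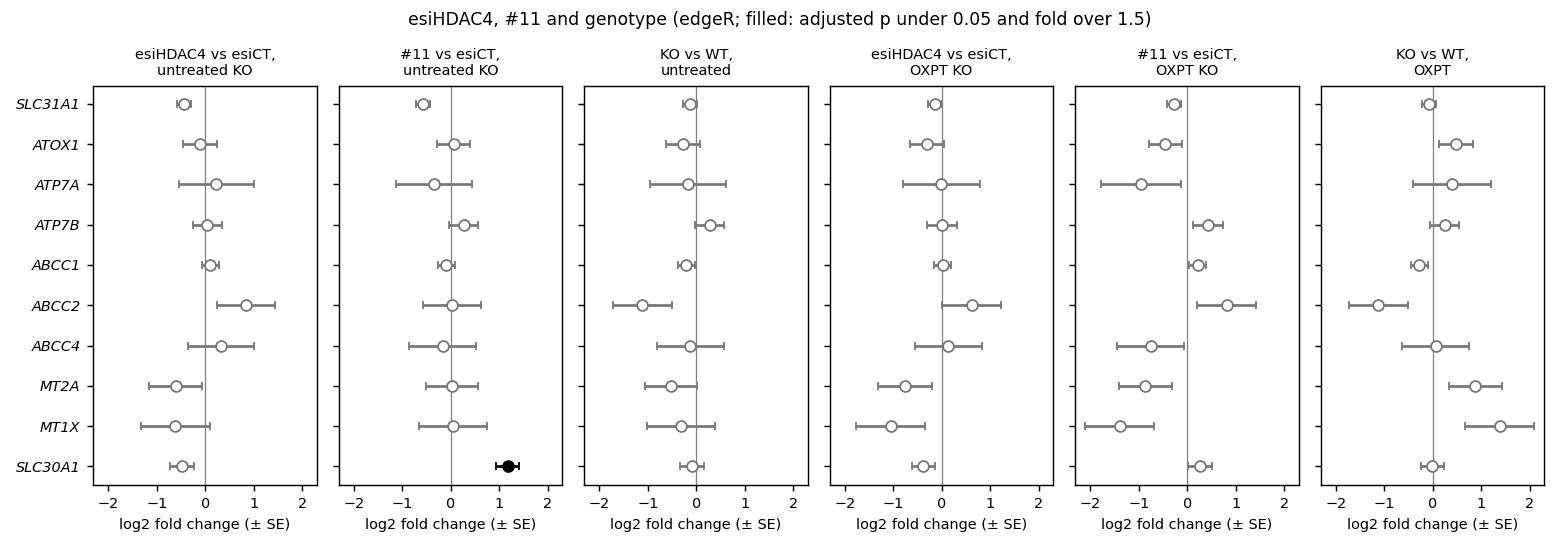
Log2 fold change (x axis, ± SE, edgeR) of the 9 tested genes and SLC30A1 for esiHDAC4 against esiCT, #11 against esiCT and KO against WT, each without and with OXPT; filled points passed an adjusted p under 0.05 and a fold over 1.5. SLC30A1 with #11 in untreated KO (1.17) is the 1 filled point.

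The genes whose log2 CPM was most like that of 4 members were sought among 11254 genes over the 24 libraries, by Pearson r and with no test. For SLC31A1 they were COLGALT1 (0.835), CUTC (0.821) and PPARG (0.814). For ATP7A they were TCF12 (0.974), FNDC3A (0.971) and CPD (0.97), for ABCC2 IFIH1 (0.848), ARID5B (0.846) and MCCC1 (0.805), and for MT2A PSENEN (0.934), SURF1 (0.934) and RPLP1 (0.926). The points share the libraries and their length make-up.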

How the data were processed

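PolyA RNA-seq of HCT-116 cells was deposited by the authors as raw read counts per gene, 1 file a library, with unstranded and per-strand columns; per the labels' processing notes Trimmomatic 0.39, STAR 2.7.11a and hg38 were used. The annotation used for counting is not given in the sources used here. Since the study's methods name salmon and DESeq2, the values tested there are others. The unstranded column was used here, since the strand columns held nearly equal totals (ratio 1.00 to 1.02); 10.6% to 12.2% of reads were ambiguous between genes, 2.58% to 5.79% lay in no gene and 7.74% to 22.3% were unmapped, and these entries stayed out of library sizes. GENCODE 44 gave symbols and lengths (62130 identifiers matched with version, 62639 without, of 62757).

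The 24 libraries with consistent labels formed 8 groups of 3; 12 were left out of all comparisons. The labels do not say whether replicates were separate cultures, so p-values measure the spread between these libraries, which may be technical. No libraries of a group were duplicates (chi-square per degree of freedom 8.31 to 224 over 24 pairs). Counts were fitted in R 4.3.3 with edgeR 4.0.16 (TMM, quasi-likelihood F test, 1 coefficient per group over 24 libraries, minimum mean of 64 raw counts in at least 1 group), in 10 comparisons of groups and 3 of responses, with Benjamini-Hochberg adjustment over 12356 genes. Each SE is the log2 fold change divided by the square root of F. A prior count of 2 entered log2 CPM. Alternatives were reverse-strand counts, RLE, no count filter, a filter in every group, DESeq2 1.42.0, only the groups compared, a replicate block and leaving out each library; leaving out number 3 and a lowess correction for transcript length were chosen after seeing the data. Replicate numbers paired the libraries in 8 of 10 comparisons, where same-numbered libraries deviated from their group means with correlations of 0.113 to 0.788 across genes, and not in the 2 of #11 against esiCT. In these 2 a difference between the sets of libraries cannot be told apart from #11. On simulated data for OXPT in KO esiCT, 100 genes were changed 2-fold and 100 4-fold. Of those that passed the count minimum, 28.6% and 86.9% were called, and of 11831 unchanged genes 0.0507%. The simulated libraries did not carry the length pattern of number 3.

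The named genes are the 10 members, the other genes of 5 pathway lists where called or under the count minimum, and for 4 members the 3 genes of highest correlation; not every gene of the lists is reported here. The members and lists were chosen with earlier results of these data known. Metallothionein paralogs can share reads, and their values are uncertain to that extent.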

Additional observations from a re-analysis of the deposited data

Results flagged for a closer look

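The response of 2 pumps to OXPT ran in opposite directions in pairs of backgrounds, library number by library number. These differences were not tested, and treated and untreated libraries are matched by number only. They are the cases found on searching the 9 tested members in every pair of backgrounds whose responses no test compared. The share of all genes with such a pattern was not computed. ABCC1 was lower with OXPT in KO esiHDAC4 at all 3 numbers (mean difference -17.9 CPM, from 111 to 93.2) and higher in KO #11 (9.88 CPM, from 97.2 to 107), where the differences were 24.99, 1.56 and 3.07 CPM and the log2 change was 0.0067 without KO #11 OXPT replicate 1. ABCC2 differed in the same way between KO esiHDAC4 (-32.6 CPM, from 85.3 to 52.7) and KO #11 (11.7 CPM, from 48.7 to 60.3), and between KO #11 and WT (-28.5 CPM, from 104 to 75.2).

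Among the 12 WT libraries that entered no comparison, 4 members reached values above all 24 others. The share of all genes with this pattern was not computed, so nothing is read from this count. The CPM of these 12 used TMM factors from all 36 libraries, and those of the 24 used factors from the 24 alone, so small margins are uncertain. SLC31A1 reached 82.2 CPM (highest of the 24, 65.1), with 2 libraries above that level, both titled WT PROTAC11, 1 of them with OXPT. ABCC2 reached 197 CPM (145), with 2 above, and ATP7A 12.9 CPM (11.0), with 1 above, in libraries titled WT siHDAC4. SLC31A2 reached 1.45 CPM (0.961), with 1 above.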

How the results depend on the processing

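Of 429 counts of called members under 33 alternatives, 403 were as in the analysis reported and 26 moved; no called value changed its sign, and 5 values lost and 22 gained a call among 3848. For OXPT in KO esiCT (1 member called) the count was 2 without the count filter, which added MT1X, and 0 with only the groups compared; the latter and the leave-one-out range of 0 to 1 concern ATOX1. For OXPT in KO esiHDAC4 (1) the range was 0 to 1 as libraries were left out. For OXPT in KO #11 (0) the count was 2 with reverse-strand counts (ATOX1 and SLC31A2, whose reads overlap FKBP15), 3 with only the groups compared (ATOX1, ABCC4 and ATP7A), 1 (ATOX1) without the count filter, with DESeq2, without number 3 and with the length correction, and 0 to 1 as libraries were left out. For OXPT in WT (0) it was 1 with reverse-strand counts (SLC31A2), 1 (ATOX1) without number 3 and with the length correction, and 0 to 1 as libraries were left out. For #11 under OXPT (0) it was 1 without the count filter (MT1X) and 1 without number 3 (ABCC4), and for KO against WT it was 1 without the count filter, ABCC2 untreated and MT1X with OXPT. The cause of these changes was not tested.

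The replicate block follows the pairing of libraries by number in 8 of 10 comparisons, but not in those of #11 against esiCT. With it the count was 1 for OXPT in KO #11 and 1 for OXPT in WT, ATOX1 in both (1.05 and 0.87). The block changed no other call of a member. Over all genes the block moved calls by over 1.5 times for #11 (63 to 397 untreated, 15 to 132 with OXPT), for KO against WT untreated (36 to 75) and for esiHDAC4 untreated (1 to 4). Over the alternatives other than leave-one-out, all-gene calls with OXPT lay between 553 and 2178 in KO esiCT (1398), 943 and 2250 in KO esiHDAC4 (1480), 786 and 2847 in KO #11 (1175), and 84 and 2614 in WT (1322), and the counts for #11 reached 1816 and 1438 without number 3.

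Depth limits ATP7A (5 to 208 reads) and SLC31A2 (0 to 19 reads). The SEs of MT2A, MT1X, ATP7A, ABCC2 and ABCC4 were wide with 3 libraries a group. A missing call for them therefore does not show that they did not differ. The share of short transcripts differed within groups. With the length correction none of these genes was called either, and how much the share accounts for was not tested.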

Other observations

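In the 12 WT libraries whose labels give opposite OXPT states, values are given by title only. ABCC2 ran from 10.6 to 58.6 CPM (median 19.5) in the 6 titled WT PROTAC11, with or without OXPT, and from 24.7 to 197 CPM (median 116) in the 6 titled WT siHDAC4. ATP7A ran from 0.106 to 1.961 CPM (median 0.846) and from 0.513 to 12.9 CPM (median 4.57), and ABCC4 from 4.90 to 10.1 CPM and from 5.05 to 35.9 CPM. SLC31A1 was 39.9 to 82.2 CPM (median 61.9) in the first 6 and 31.0 to 56.3 CPM (median 36.3) in the second. MT2A was 782 to 1533 CPM and 375 to 2270 CPM, MT1X 19.4 to 56.3 and 7.05 to 36.3 CPM, and ATOX1 30.04 to 99.7 and 17.1 to 96.5 CPM. SLC30A1 was 29.7 to 66.6 CPM in the libraries titled WT PROTAC11 and 11.2 to 42.1 CPM in those titled WT siHDAC4. No test was made on these libraries.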
